A study of Homo sapiens with 16 samples.

Results

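The nucleoside transporters of the SLC28 and SLC29 families were examined in the GRC1 cell line, a gemcitabine-resistant derivative of T24 bladder cancer cells. The 7 genes were taken by symbol from a table of 39007 genes: SLC28A1, SLC28A2, SLC28A3, SLC29A1, SLC29A2, SLC29A3 and SLC29A4. Of these, 4 had a mean above 1 CPM (reads of a gene scaled to the total of its library) over the 16 libraries and were tested among 13249 genes, and the 3 SLC28 genes had not.

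RNA was sequenced from 16 libraries, with 4 for parental phase P0 (T24 cells before selection) and 4 each for P3, called the early phase, P7, the intermediate phase, and P15, the late phase. Each phase is a round of gemcitabine exposure followed by outgrowth of the surviving cells. All libraries stand for a single cell line and its derivative GRC1, cultured in the same medium, and the labels name no batch and do not say whether the 4 libraries of a phase came from separate cultures, so the p-values measure a spread between libraries that may be technical. The sample titles also carry numbers after the letter S, which recur between phases and which the labels do not explain. Whether the phases were sequenced together is not known. Other GRC lines were not analysed here. Several epithelial markers were far lower in P15 than in the other phases (values below), and whether the P15 stock descends from the P7 cells was not tested, which bears on each P15 difference.

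Gemcitabine is a deoxycytidine analogue that enters cells through nucleoside transporters and is then phosphorylated inside the cell. The SLC28 family encodes the concentrative transporters, which move nucleosides inward with sodium: CNT1 (SLC28A1) prefers pyrimidines, CNT2 (SLC28A2) prefers purines, and CNT3 (SLC28A3) takes both. The SLC29 family encodes the equilibrative transporters, which move nucleosides down their gradient: ENT1 (SLC29A1) is the main route of gemcitabine entry in many cells, ENT2 (SLC29A2) also carries nucleobases, ENT3 (SLC29A3) sits mainly on intracellular membranes such as lysosomes, and ENT4 (SLC29A4) is known as a plasma membrane monoamine transporter.

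The largest differences in the family were those of P15. SLC29A1, SLC29A2 and SLC29A4 all had their highest values there. Mean CPM was 7.77-fold over P0 for SLC29A2, 17.8-fold for SLC29A4 and 1.7-fold for SLC29A1. SLC29A4 passed the filter through P15 alone, so it had to be higher there and its fold is a description. Before P15, SLC29A2 had fallen in P3 and SLC29A1 in P7. SLC29A3 stayed within a narrow range, and SLC28A3 was low in P0 and P3 and lower in P7 and P15. SLC28A1 was at or near 0 in every phase, and SLC28A2 was at or near 0 outside P15.

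Positions are those of GENCODE 44 on GRCh38. SLC29A1 is at chr6:44219553-44234142 on the plus strand, SLC29A2 at chr11:66362521-66372214 on the minus strand, SLC29A3 at chr10:71319259-71381423 on the plus strand and SLC29A4 at chr7:5274369-5306912 on the plus strand. SLC28A1 (chr15:84884654-84945798, plus) and SLC28A2 (chr15:45252234-45277846, plus) share a chromosome without being neighbours, and SLC28A3 is at chr9:84275457-84340758 on the minus strand.

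The stretches before the starts of 3 SLC29 genes are shown, for which RefSeq start sites were available. Whether their letters bear on the phase differences was not tested. RefSeq start sites (GRCh38.p14) were matched for 4 of the 7 genes, of which SLC28A1 is not shown. None was available for SLC29A2, SLC28A2 and SLC28A3. The stretches run up to the 250 bases before the start, ended where an annotated exon begins. The start matched for SLC29A4 (chr7:5282943) lies inside the GENCODE span of the gene, not at its first base. Capitals mark the letters of 4 promoter motifs searched on both strands. The first is the E-box CACGTG, bound by basic helix-loop-helix factors such as MYC and USF. The second is TGACTCA, the site of the Jun and Fos dimer AP-1. The third is the GC box GGGCGG, a site of the general activator SP1. The last is the TATA box with the letters TATAAA, at which the basal transcription machinery assembles.
SLC29A1, chr6:44219365-44219552, plus strand: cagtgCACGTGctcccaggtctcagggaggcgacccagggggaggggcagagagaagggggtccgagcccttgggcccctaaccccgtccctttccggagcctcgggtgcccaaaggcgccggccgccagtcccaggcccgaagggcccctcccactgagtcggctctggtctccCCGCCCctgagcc
SLC29A4, chr7:5282693-5282942, plus strand: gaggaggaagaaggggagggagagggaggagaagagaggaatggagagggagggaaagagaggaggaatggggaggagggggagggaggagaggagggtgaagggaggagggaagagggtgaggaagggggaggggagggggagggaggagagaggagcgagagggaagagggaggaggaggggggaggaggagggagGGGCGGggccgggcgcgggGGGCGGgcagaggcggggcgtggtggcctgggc
SLC29A3, chr10:71319009-71319258, plus strand: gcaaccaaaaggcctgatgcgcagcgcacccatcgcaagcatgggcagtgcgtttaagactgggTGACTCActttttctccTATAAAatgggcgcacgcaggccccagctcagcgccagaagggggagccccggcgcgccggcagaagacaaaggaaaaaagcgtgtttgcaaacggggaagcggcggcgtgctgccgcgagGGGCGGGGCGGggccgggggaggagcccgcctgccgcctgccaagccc

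The SLC29A1 stretch held 1 E-box and 1 GC box and was 72.9% G and C. A second RefSeq start of SLC29A1, with the stretch chr6:44223345-44223558 (not shown), held 2 GC boxes and no E-box at 75.7% G and C. The SLC29A4 stretch, 70.4% G and C with a long run of purines, held 2 GC boxes and none of the other motifs. The SLC29A3 stretch held 1 AP-1 match, 1 TATA match and 2 overlapping GC boxes at 66.4% G and C. Over 35116 RefSeq windows of 250 bases, 6.34% held the E-box, 4.2% the AP-1 letters, 42.6% the GC box and 10.7% the TATA letters, and the median G and C content was 58.0%. The SLC29A1 stretches (188 and 214 bases) were shorter than these windows, and their full windows of 250 bases held 2 and 3 GC boxes. A match describes letters only and is not a measured binding site.

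SLC29A1, the equilibrative transporter ENT1, was the most abundant gene of both families in each library. Its log2(CPM + 1) values were 6.32, 6.30, 6.30 and 6.38 in P0 and 6.31, 6.43, 6.29 and 6.36 in P3. They were 6.0, 5.99, 6.02 and 5.96 in P7 and 7.08, 7.09, 7.07 and 7.09 in P15. The P15 libraries lay above and the P7 libraries below every library of P0 and P3, while P0 and P3 overlapped. In mean CPM these levels were 79.2 ± 2.13 (SD, n = 4 libraries here and throughout), 80.5 ± 3.56, 62.7 ± 1.1 and 135 ± 0.898.

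In P15, SLC29A1 was 1.7-fold higher than in P0 in mean CPM, with 1.62 to 1.74 over all pairs of libraries. On the log2 scale the difference was 0.76 ± 0.03 (SE), with an adjusted p = 2.3e-16 (limma, Benjamini-Hochberg). Against P7 it was 1.09 ± 0.03 (adjusted p = 1.3e-19, limma), the only step in which SLC29A1 reached 2-fold. Among all tested genes, 1541 had a larger log2 fold change in that step and 2302 in P15 against P0. The fall from P3 to P7 was small, -0.36 ± 0.03 (adjusted p = 4.3e-09, limma), and 8.63% of tested genes had a lower log2 fold change there. Against P0, P7 was lower by -0.33 (adjusted p = 8.1e-09, limma). No difference between P3 and P0 was detectable (0.02 ± 0.03, adjusted p = 0.57, limma).

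**Figure D1:**
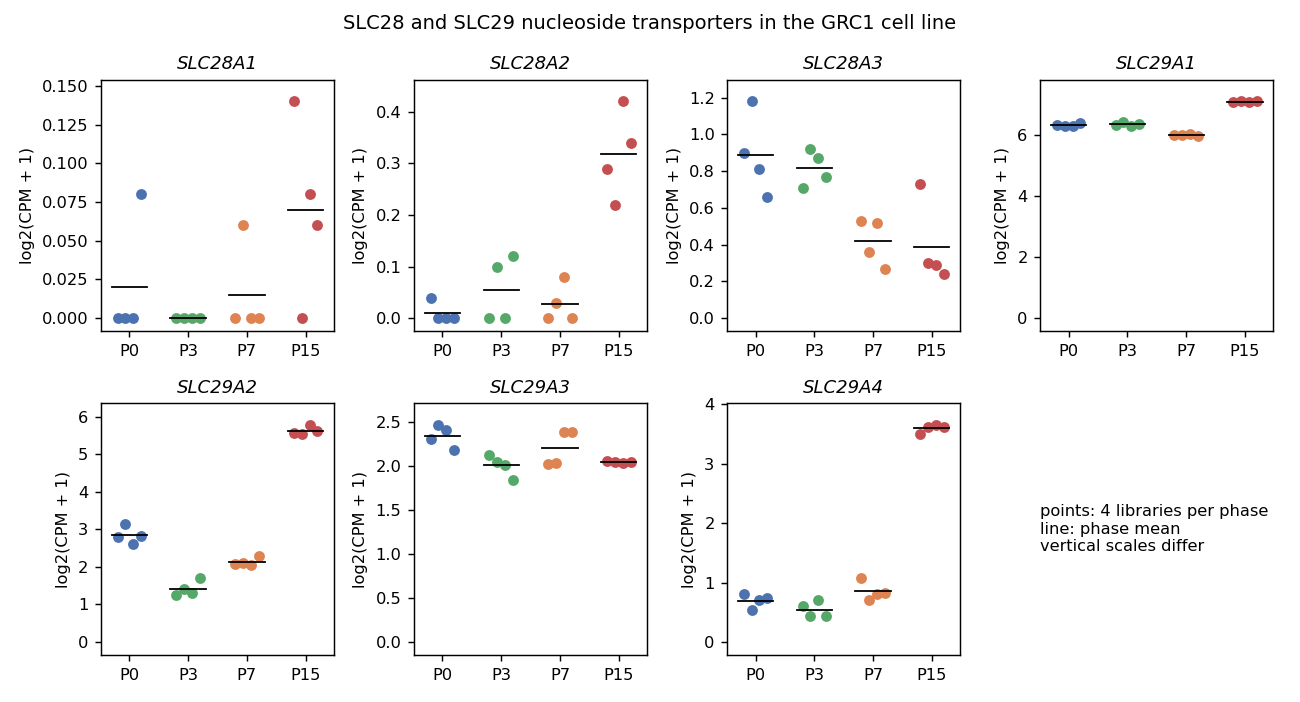
Deposited log2(CPM + 1) values of the 7 transporters by phase, with 1 point per library, 4 libraries per phase and a line at the phase mean; vertical scales differ between panels. SLC29A1, SLC29A2, SLC29A4 and SLC28A2 have all 4 P15 libraries above all others. How many of all genes separate in this way was not counted, and 86.2% of tested genes were called in P15 against P0. SLC29A4 passed the filter through P15 alone. SLC28A1 and SLC28A2 do not pass 0.42 in any library.

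SLC29A2, the equilibrative transporter ENT2, had the widest spread between phases of the family. Its log2(CPM + 1) values were 2.79, 3.14, 2.61 and 2.83 in P0 and 1.25, 1.42, 1.31 and 1.70 in P3. They were 2.09, 2.11, 2.04 and 2.30 in P7 and 5.56, 5.55, 5.78 and 5.61 in P15. No 2 phases overlapped, and the order from low to high was P3, P7, P0 and P15. How many of all genes separate between all phases was not counted. Mean CPM was 1.70 ± 0.389 in P3, resting on 52 to 76 reads per library, 3.40 ± 0.358 in P7, 6.24 ± 1.14 in P0 and 48.5 ± 3.77 in P15.

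The first step was a fall. SLC29A2 was 3.68-fold lower in P3 than in P0 in mean CPM (2.27 to 5.67 over pairs of libraries), a log2 difference of -1.42 ± 0.10 (adjusted p = 1.6e-11, limma with Benjamini-Hochberg), and 141 of the tested genes had a lower value. It then rose by 0.72 ± 0.10 from P3 to P7 (adjusted p = 2.8e-06, limma), still 0.71 below P0 on the log2 scale (-0.71, adjusted p = 2.4e-06, limma).

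The last step was the largest. From P7 to P15, SLC29A2 rose 14.2-fold in mean CPM (11.7 to 17.3), a log2 difference of 3.49 ± 0.10 (adjusted p = 5.2e-20, limma). Over P0 the rise was 2.78 ± 0.10 (adjusted p = 5.6e-18, limma), 7.77-fold in mean CPM (5.87 to 10.6), with 223 tested genes higher. Against P3 it was 4.2 ± 0.10 (adjusted p = 1.2e-21, limma), 28.6-fold in mean CPM (20.4 to 39.1), with 51 tested genes higher. A log2 difference on the log2(CPM + 1) scale understates the change of a low gene, which is why the folds of mean CPM stand beside it. For SLC29A2, 279 of the 2720 exonic bases are shared with B4GAT1-DT on the opposite strand, and no strand setting is given in the sources used here.

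SLC29A4, the transporter ENT4 or PMAT, is known for carrying monoamines and, at acid pH, adenosine. Its log2(CPM + 1) values were 0.80, 0.53, 0.71 and 0.74 in P0 and 0.61, 0.43, 0.70 and 0.44 in P3. They were 1.08, 0.70, 0.81 and 0.82 in P7 and 3.50, 3.61, 3.65 and 3.62 in P15. All P15 libraries stood apart from the other 12, which overlapped or touched from phase to phase. The estimated reads were 12 to 42 per library before P15 and 412 to 509 in P15.

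SLC29A4 passed the filter through P15 alone, since its mean over the other libraries was 0.634 CPM, so it had to be higher there and its P15 values are a description. Mean CPM in P15 was 11.1 ± 0.54, against 0.623 ± 0.127 in P0, 0.464 ± 0.135 in P3 and 0.814 ± 0.21 in P7. The log2 difference of P15 was 2.90 ± 0.10 from P0, 2.74 ± 0.10 from P7 and 3.05 ± 0.10 from P3, and P15 was 17.8-fold above P0 in mean CPM (13.9 to 26.0). The highest P3 library and the lowest P7 library had the same value, 0.70. From P3 to P7 the difference was 0.31 ± 0.10 (adjusted p = 0.0093, limma with Benjamini-Hochberg), from few reads. That call was lost without replicate 1 of P7 (0.23, adjusted p = 0.051, limma), with no filter (adjusted p = 0.053) and with a pseudocount of 5 (adjusted p = 0.053). Neither P3 nor P7 differed detectably from P0 (adjusted p = 0.18 and 0.17, limma).

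Reads of 2 other sequences could in principle be counted as SLC29A4. TNRC18 shares 123 exonic bases (2.11%) on the opposite strand and had phase means of 7.08, 6.98, 6.89 and 7.55 on the log2 scale from P0 to P15. The pseudogene SLC29A4P1 was listed at 0 in all 16 libraries. Their part in the SLC29A4 values was not tested.

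SLC29A3, the lysosomal transporter ENT3, moved little. Its log2(CPM + 1) values were 2.31, 2.47, 2.41 and 2.19 in P0 and 2.13, 2.05, 2.02 and 1.85 in P3. They were 2.03, 2.04, 2.39 and 2.39 in P7 and 2.06, 2.05, 2.04 and 2.05 in P15. P0 lay above P3 and P15 without overlap, P7 spanned both levels, and the P15 libraries were almost equal. SLC29A3 was lower in P3 than in P0 by -0.33 ± 0.10 (adjusted p = 0.0036, limma with Benjamini-Hochberg) and lower in P15 than in P0 by -0.30 ± 0.10 (adjusted p = 0.0064, limma). In mean CPM these were 1.34-fold and 1.3-fold. With quantile normalization the first missed the threshold (-0.21, adjusted p = 0.054, limma), and P15 passed it against P7 (-0.35, adjusted p = 0.0018) and P3 (-0.24, adjusted p = 0.028). The other 4 comparisons gave values between -0.16 and 0.20 and did not pass the test. An unnamed gene (ENSG00000279406) shares 723 of the exonic bases of SLC29A3 on the same strand, so its reads could be split.

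**Figure D2:**
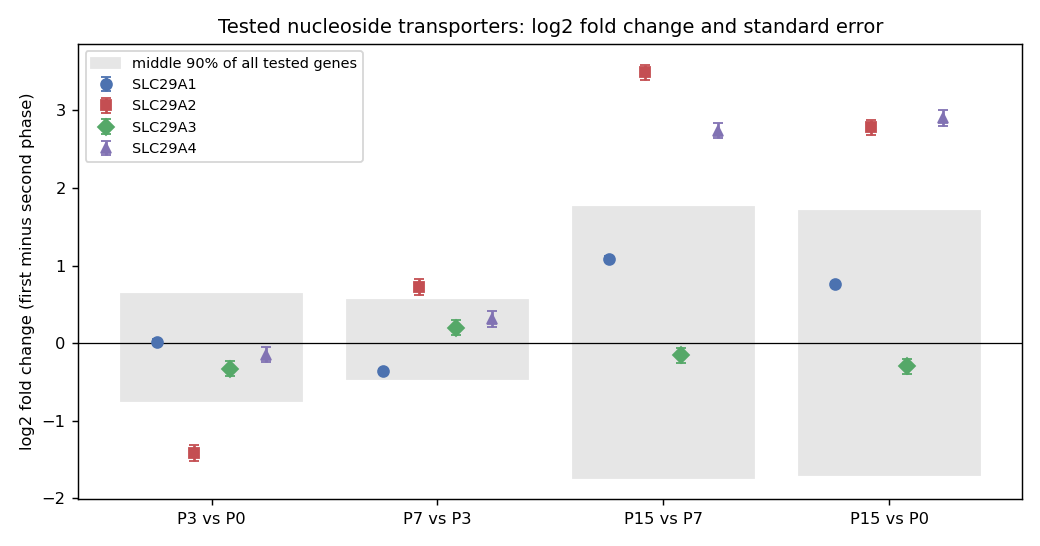
Log2 fold changes of the 4 tested transporters with their standard errors for P3 vs P0, P7 vs P3, P15 vs P7 and P15 vs P0; grey boxes span the middle 90% of the 13249 tested genes. SLC29A2 lies above the box in both P15 comparisons (2.78 against P0) and below it in P3 vs P0 (-1.42). SLC29A4 (2.90 against P0) was tested only because of P15, so its place against the box is not read.

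Counted over the 4 tested members, the calls have to be read against the share of all tested genes called. In P3 against P0, 2 members fell (SLC29A2 and SLC29A3) and 68.7% of all tested genes were called at an adjusted p below 0.05. In P7 against P0, 2 fell (SLC29A1 and SLC29A2) against 62.1% of all. In P7 against P3, 3 were called, of which SLC29A1 fell, against 58.2% of all. In P15 against P0 the 4 tested members were called, 3 higher (with SLC29A4, which was tested only because of P15) and SLC29A3 lower, against 86.2% of all genes. In P15 against P7, 3 rose where 86.4% of all were called, and in P15 against P3, 3 rose where 87.2% were, again with SLC29A4 among them.

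With a 2-fold rule added, the background is lower. SLC29A2 alone was called in P3 against P0, where 4.46% of all tested genes were. With a pseudocount of 5 in place of 1 it missed 2-fold there (-0.74), and no member was called. No member was called in P7 against P0 (3.37% of all) or in P7 against P3 (1.83%). SLC29A2 was called higher in P15 against P0, where 23.6% of all genes were called in either direction and 12.1% as higher. SLC29A1 and SLC29A2 were in P15 against P7 (25.5% in either direction, 13.4% higher), and SLC29A2 was in P15 against P3 (27.1% in either direction, 14.9% higher). SLC29A4 passed the same rule in these 3 comparisons, but it was tested only because of P15 and is not read against those shares. The P15 comparisons share their P15 libraries and are not independent of each other.

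The concentrative transporters were far lower. SLC28A3, the transporter CNT3, had log2(CPM + 1) values of 0.90, 1.18, 0.81 and 0.66 in P0 and 0.71, 0.92, 0.87 and 0.77 in P3. They were 0.53, 0.36, 0.52 and 0.27 in P7 and 0.73, 0.30, 0.29 and 0.24 in P15, from 8 to 46 estimated reads per library over all phases. P0 and P3 overlapped, and all P7 libraries lay below them. In P15, replicate 1 stood among the P3 values and the other 3 libraries near those of P7.

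SLC28A3 was not tested at a mean above 1 CPM. In the fit without a filter, over 33331 genes, it was lower in P7 than in P0 by -0.47 ± 0.12 (adjusted p = 0.0064, limma with Benjamini-Hochberg), where 25.3% of all genes were called, and lower than in P3 by -0.40 (adjusted p = 0.021, limma; 22.9% called). P15 was lower than P0 by -0.50 ± 0.12 (adjusted p = 0.0019, limma; 46.3% called) and lower than P3 by -0.43 (adjusted p = 0.006, limma; 47.1% called). Without replicate 1 of P15, a choice made after seeing the data, these became -0.61 (adjusted p = 0.00022) and -0.54 (adjusted p = 0.0006). P15 and P7 did not differ detectably with that library (-0.03, adjusted p = 0.91, limma) or without it (-0.14, adjusted p = 0.32). In mean CPM, P0 stood 2.68-fold above P15, with 0.881 to 6.99 over pairs of libraries.

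SLC28A2, the purine-preferring CNT2, had log2(CPM + 1) values of 0.29, 0.22, 0.42 and 0.34 in P15. In P0 it was listed at 0 in 3 libraries and at 0.04 in replicate 1, and in P3 and P7 it was between 0 and 0.12. Every P15 library lay above every other library. How many of all genes separate in this way was not counted. In the fit without a filter, 46.3% of all genes were called in P15 against P0 and 47.1% in P15 against P3. The estimated reads summed over a phase were 40 in P15 and 1, 6 and 3 in P0, P3 and P7. From these sums, P15 was 6.24 times P3 (95% exact interval 2.63 to 18), 13.2 times P7 (4.2 to 66.6) and 35.3 times P0 (5.99 to 1430), where the intervals cover counting error only. Such ratios were computed for no other member. The highest level of SLC28A2, 0.338 CPM, was under the filter of 1 CPM. SLC28A2 and SLC28A3 share 345 and 126 exonic bases with antisense genes, whose reads could not be told apart without a strand setting.

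SLC28A1, the pyrimidine-preferring CNT1 that can carry gemcitabine, was listed at 0 in all 4 libraries of P3, in 3 each of P0 and P7 and in 1 of P15. The others held 2 to 4 estimated reads: replicate 4 of P0 (0.08 on the log2 scale), replicate 2 of P7 (0.06) and replicates 1, 3 and 4 of P15 (0.14, 0.08 and 0.06). In P3, a count of 0 allows up to 0.0196 CPM (3 reads over its libraries). No difference between phases was read from counts this low.

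Levels of different genes can be set side by side only per length, as CPM per kb of annotated exon. By that measure the 7 genes summed to 51.6 ± 1.3 in P15, against 21.7 ± 0.58 in P0, 20.1 ± 0.866 in P3 and 16.6 ± 0.189 in P7. SLC29A1 led in all 16 libraries, with 18.4 ± 0.495, 18.7 ± 0.827, 14.6 ± 0.256 and 31.3 ± 0.209 CPM per kb from P0 to P15. SLC29A2 followed with 2.29 ± 0.419, 0.623 ± 0.143, 1.25 ± 0.132 and 17.8 ± 1.38. In P15 it came to the level at which SLC29A1 stood in P0 and P3.

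The make-up of the family followed. SLC29A1 was 60.6% ± 1.79 of the summed CPM per kb in P15, after 85.1% ± 1.98, 93.2% ± 0.332 and 87.7% ± 1.06 from P0 to P7. SLC29A2 was 34.5% ± 1.79 in P15, after 10.5% ± 1.72, 3.1% ± 0.66 and 7.52% ± 0.843. SLC29A4 was at most 1.15% in each library before P15 and 3.68% ± 0.136 in P15. Below SLC29A2 the order changed: in P0, SLC29A3 (0.659 CPM per kb) led SLC28A3 (0.169) and SLC29A4 (0.107), which lay within each other's spread, and in P15 SLC29A4 (1.90) led SLC29A3 (0.505). Reverse transcription was primed with poly(dT), and the evenness of coverage along the transcripts, on which such a measure rests, was not tested.

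**Figure D3:**
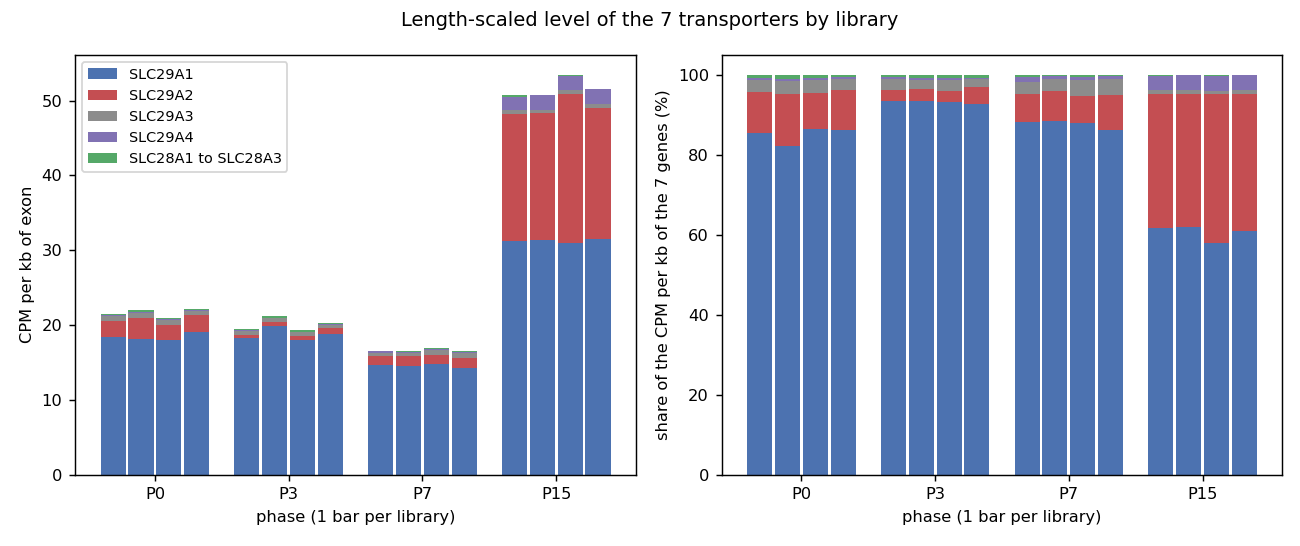
Stacked bars per library of the 7 genes in CPM per kb of exon (left) and as a share of their sum in percent (right), with the 3 SLC28 genes as 1 segment. The sum stands at 50.7 to 53.5 in the P15 libraries and at 16.5 to 22.2 in the others, and the SLC29A2 segment is 33.2 to 37.1% in P15.

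By the likeness of the profile over the 16 libraries (smallest root mean square difference of the centred log2 values), the genes nearest to SLC29A1 were RCC1, a nuclear exchange factor for Ran (0.05 log2, r = 0.993), C19orf48 (0.05) and the kinase ULK3 (0.06). RCC1 had phase means of 7.36, 7.36, 7.10 and 8.10. Nearest to SLC29A2 were PADI3, a peptidylarginine deiminase (0.24, r = 0.989), the selenoprotein SELENOM (0.29) and KYNU, kynureninase (0.30). PADI3, which passed the filter through P15 alone like the 3 genes named next, had phase means of 1.07, 0.11, 0.50 and 4.21 and so shared the low value in P3. Nearest to SLC29A4 were RP11-78C3.1 (0.15), CPSF1P1 (0.16) and the collagen COL22A1 (0.16), with phase means of at most 0.27 before P15 and between 2.86 and 3.19 in it. These are descriptions over the same 16 libraries, which share their phases.

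The genes beside the 3 transporters with a 2-fold call had medians below 0 in P15 against P0. The 10 nearest tested genes of SLC29A1, 5 on each side within 758 kb, had a median log2 fold change of -0.22 in P15 against P0 (-0.56 to 1.08). None reached 2-fold in P15 against P7, where SLC29A1 did and 25.5% of all tested genes were called at 2-fold. HSP90AB1 (0.96) and TMEM63B (0.91) came close to 2-fold in that step. Against P0 they rose by 0.97 and 1.08, beside 0.76 for SLC29A1. In P15 against P0, 23.6% of all tested genes were called at 2-fold. Around SLC29A2 the median was -0.37 over 279 kb, with TMEM151A (2.52, tested through P15 alone) higher and BRMS1 (-1.21) and PELI3 (-1.87) lower. In P3 against P0, its neighbour CTSF, a lysosomal cathepsin, was also lower (-1.56), and CTSF rose by 1.05 in P15 against P7 and 1.44 against P3. Around SLC29A4 the median was -0.16 (-1.72 to 0.47), with AP5Z1 as the one gene at 2-fold (-1.72). Of the tested genes, 12071 (91.1%) could be placed.

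**Figure D4:**
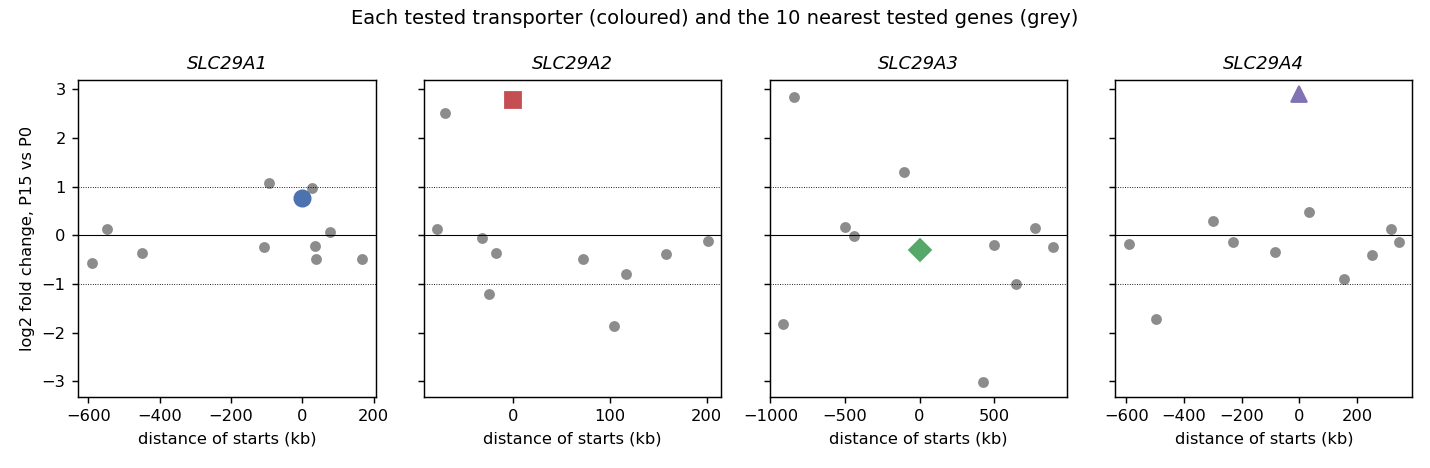
Log2 fold change of P15 against P0 (vertical) by distance of gene starts in kb (horizontal) for each tested transporter (large coloured symbol) and its 10 nearest tested genes (grey). SLC29A4 (2.90) stands above all its neighbours, and SLC29A2 (2.78) has TMEM151A (2.52) close to it. SLC29A1 (0.76) stands below its neighbours TMEM63B (1.08) and HSP90AB1 (0.97). SLC29A4 and TMEM151A were tested only because of P15, so their heights are descriptions.

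After uptake, gemcitabine is phosphorylated by DCK, inactivated by the deaminase CDA, and acts on targets such as ribonucleotide reductase. Of 17 genes of gemcitabine kinases, deaminases, nucleotidases and targets, 16 were tested, and in P15 against P0 5 rose and 9 fell (limma, Benjamini-Hochberg; 86.2% of all genes called), with a median of -0.26 against 0.04 over all genes. CDA, counted among the 5 that rose, was at 0.84 ± 0.28 on the log2 scale in P0 and at 2.09 in P15. Its rise is a description only, since it passed the filter through P15 alone (0.683 CPM without it) and so had to be higher there. At 2-fold, DCK fell by 1.09, TK1 by 1.16, the nucleotidase NT5C2 by 1.52 and the triphosphohydrolase SAMHD1 by 1.97. DCK went from 5.83 to 4.74 while SLC29A1 and SLC29A2 rose. In P3 and P7 against P0 none of the 16 reached 2-fold. CDA and SAMHD1 are named by the study from these same libraries, so their direction is not independent evidence.

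Other transporters of these molecules took different courses. Of 3 genes listed as nucleobase transporters, SLC43A3 carries purine nucleobases. It fell from 5.61 in P0 and 6.10 in P7 to 0.08 in P15. The log2 difference from P0 was -5.54 ± 0.05 (adjusted p = 1.9e-30, limma). SLC23A1 and SLC23A2 in that list are known in human cells as ascorbate transporters. SLC23A2 fell by 0.21 and SLC23A1 was not tested. Of 7 efflux pumps 6 were tested, and in P15 against P0 4 rose and 1 fell without reaching 2-fold, where 86.2% of all genes were called, among them ABCC5 (0.66), a nucleotide pump, and ABCG2 (-0.70). ABCC3 fell in P3 (-1.51 against P0) and rose in P7 (1.58 against P3), when its phase mean was 5.23 after 5.16 in P0. None of the 5 organic cation transporters, which share substrates with ENT4, was tested, and SLC22A3 had the highest phase mean among them (1.24 in P7, 0.18 in P15).

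Adenosine is a substrate of both families. Of 14 genes of adenosine handling, 10 were tested, and in P15 against P0 5 rose and 4 fell, near the 86.2% called over all genes. At 2-fold, NT5E, the ectonucleotidase CD73 that makes adenosine, rose from 5.58 to 8.20 (2.61 ± 0.03) and adenosine deaminase ADA by 1.90. ENTPD2, counted among the 5 that rose, was tested through P15 alone (0.626 CPM without it), so its higher value there (2.68 against 0.93 in P0) is a description. The adenosine receptors ADORA1 (-3.71) and ADORA2B (-1.59) fell, as did the channel PANX1 (-1.27). NT5E and ADORA1 are among the genes the study picked from these libraries, so their direction is not independent evidence.

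SLC29A3 resides in the lysosome, and other lysosome genes are set beside it here. Of 15 listed 14 were tested, and 13 rose in P7 against P3 (median 0.38, against 0.01 over all genes, of which 58.2% were called), a step in which SLC29A3 did not pass the test (0.20). The study picked LAMP1, LAMP2, NEU1, CTSD, NPC1, TPP1, SLC17A5 and CTNS from these libraries as genes of P7, so that count is not independent evidence of its direction. In P15 against P7, 12 of them fell and 2 rose (median -1.05, against 0.06 over all genes, of which 86.4% were called), beside -0.16 for SLC29A3. CTSD, a cathepsin, rose by 1.25 and then fell by 1.92. In P15 against P0, 3 rose and 11 fell (86.2% of all called).

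Expression of ENT1 is known to respond to hypoxia and to the cell cycle. Of 9 hypoxia genes 8 were tested, and 7 rose in P3 against P0 (NDRG1 by 2.34), where 68.7% of all genes were called, a step with no detectable change of SLC29A1. In P15 against P7, 7 fell and 1 rose (86.4% of all called), and in P15 against P0 4 rose and 4 fell (86.2%). PDK1 and SLC2A1, both in the list, are among the genes the study picked from these libraries, so their direction is not independent evidence. Of the 11 proliferation genes, 3 rose and 8 fell in P15 against P0 (86.2% of all called), with PCNA lower by 2.07 and CDK1 higher by 0.73. Their part in the transporter values was not tested.

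**Figure D5:**
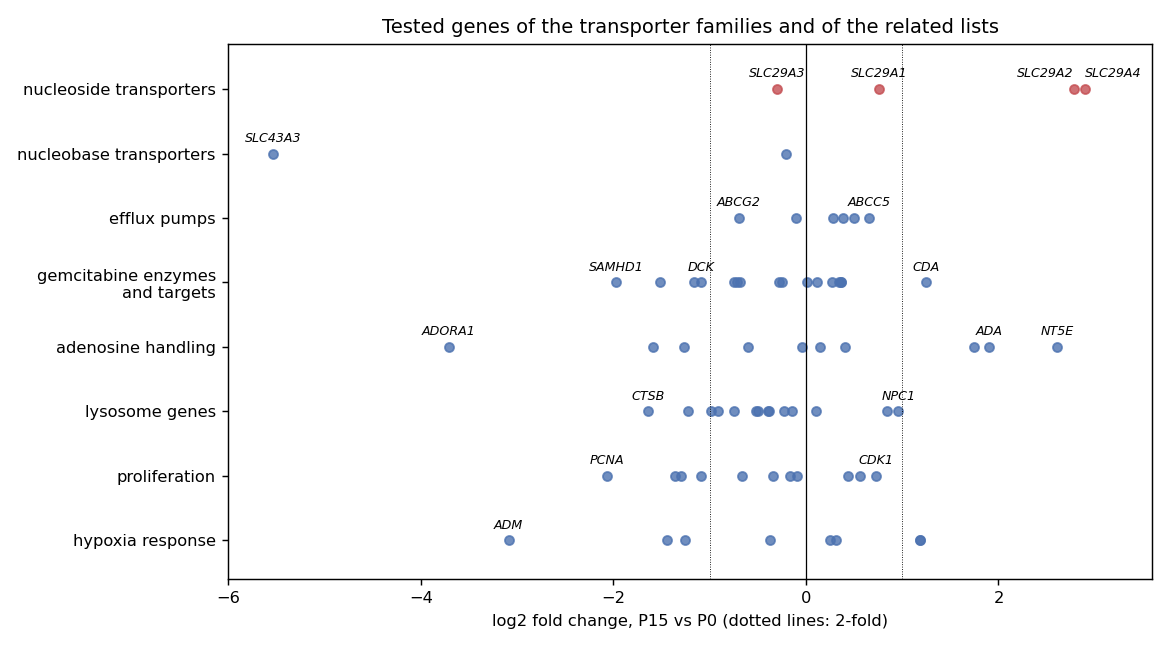
Log2 fold change of P15 against P0 for each tested gene of the transporter families (red) and of 7 related lists (blue), with dotted lines at 2-fold. SLC29A2 and SLC29A4 lie at 2.78 and 2.90, SLC43A3 at -5.54, DCK at -1.09 and CDA at 1.25. SLC29A4, CDA and ENTPD2 passed the filter through P15 alone, so their values are descriptions. The row named for nucleobase transporters also holds the ascorbate transporter SLC23A2.

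Markers of the labelled tissue also changed in P15, beside the transporter values above. Of 14 urothelial and epithelial markers 8 were tested, and 7 fell at 2-fold in P15 against P0 (23.6% of all genes called in either direction). Among them were KRT7 (-6.26), KRT19 (-6.41) and GATA3 (-3.93), while KRT18 rose by 0.43. GATA3, FOXA1 and PPARG, counted among the 7, are also genes the study picked from these libraries, so their direction is not independent evidence. The summed level of all 14 markers was 697 to 775 CPM in P15, against 2210 to 2280 in P0, 2430 to 2570 in P3 and 1780 to 1930 in P7. KRT18 alone had a mean of 633 CPM in P15 and 471 CPM in P0. KRT5, TP63, UPK1B and UPK3A were at or near 0 in every phase, and UPK1A, not tested, had phase means of 0.10, 0.34, 0.67 and 1.57 from P0 to P15. Of 7 markers of other cells 2 were tested. COL1A1 rose from 2.59 in P0 to 4.64 in P15. CDH5 was at 2.74 in P0 and 0.18 in P15, a description, since it passed the filter through P0 alone (0.117 CPM without it). CDH5 is also among the study's picked genes. PTPRC, CD3E and DCN were at or near 0 in every phase, and the summed level of the 7 was 23.8 to 27.3 CPM in P15, against 10.9 to 12.8 in P0, 2.07 to 3.04 in P3 and 5.09 to 6.22 in P7. Their part in the transporter values was not tested. A change in the share of cells that express a transporter and a change per cell cannot be told apart in these bulk libraries.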

How the data were processed

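RNA of 16 libraries was analysed, 4 for each of phases P0, P3, P7 and P15. Per the study's methods, the authors aligned paired-end reads to GRCh38 with STAR (version 2.6.1a in the submitters' processing notes), counted them on genes and scaled them to CPM. The study's methods then name quantile normalization and median centring. The deposited values are log2 of CPM plus 1, rounded to 2 decimals, for 39007 genes, of which 27 names read as dates. They were used as deposited, with low values on steps of whole reads (below), so quantile normalization stands here as an alternative. The strand setting is not given in the sources used here. No value column was left unmapped.

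Library totals of 33.8 to 50.0 M reads were read off the steps between low values, of which 97.4 to 100% lay on whole reads. A single read is 0.02 to 0.0296 CPM, so values of a few reads are coarse. Estimated reads and CPM were computed from the rounded log2 values.

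The log2 values of the phases were compared by limma 3.58.1 (R 4.3.3, 1 coefficient per phase, variance prior with a trend). The 13249 genes above 1 CPM on average were tested, with p-values adjusted over all of them by Benjamini-Hochberg. The procedure was tested on simulated data. Tables were made in Python 3.11.15. The members, the gene lists and the rules were chosen with earlier results of these data known. Genes named were the 7 members and, for each member called at 2-fold, the 3 genes of most similar profile. Neighbours were named where called at 2-fold in a comparison in which the member was. TMEM63B and HSP90AB1, beside SLC29A1, were named outside this rule. Further examples came from fixed lists (gemcitabine enzymes, efflux pumps, organic cation transporters, genes listed as nucleobase transporters, adenosine handling, lysosome, proliferation, hypoxia, cell markers). A gene of the cell markers is not reported here. Replicate numbers follow the sample descriptions, which differ from the number in the title in 14 libraries. Alternatives were pseudocounts of 0.1 and 5, other filters, quantile normalization, equal medians, a fit without the variance trend, a replicate block, fits of only the phases compared and leaving out each library.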

Additional observations from a re-analysis of the deposited data

Results flagged for a closer look

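In 4 of the 27 groups of 4 libraries with a range above 0, a single library lay far from the others by Dixon's ratio of gap to range, which chance alone passes in about 1 of 20 groups. SLC28A3 in P15 had replicate 1 at 0.73 on the log2 scale and the other libraries at 0.24 to 0.30 (ratio 0.878). SLC28A1 in P0 had replicate 4 at 0.08, SLC28A1 in P7 had replicate 2 at 0.06, and SLC28A2 in P0 had replicate 1 at 0.04, with all other libraries at 0 (ratio 1.0 each). These 3 values are 1 or 2 estimated reads, so any library with a read is flagged when the others have none.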

How the results depend on the processing

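Of 426 values of single transporters under the alternatives, 413 kept their direction and their side of the threshold. With quantile normalization, the members called in P3 against P0 went from 2 to 1, since SLC29A3 missed the threshold (-0.21, adjusted p = 0.054, limma with Benjamini-Hochberg). With a pseudocount of 5, SLC29A2 no longer reached 2-fold in P3 against P0 (0 members at 2-fold in place of 1). With at least 1 CPM required in all libraries, SLC29A4 was not tested, and 1 member in place of 2 was called at 2-fold in P15 against P0 and in P15 against P3. Values that turned their sign were not called to begin with: SLC29A1 in P3 against P0 was -0.01 with quantile normalization and -0.01 (without replicate 2 of P3) to 0.04 with a library left out, and SLC29A3 in P15 against P3 was -0.24 with quantile normalization (adjusted p = 0.028, limma) and -0.02 (without replicate 4 of P3) to 0.08 with a library left out. SLC29A3 in P15 against P7 passed the threshold with quantile normalization (-0.35, adjusted p = 0.0018, limma) and without replicate 1 or 2 of P7 (-0.22 each, adjusted p = 0.042 and 0.045). In P7 against P3 it passed it without either (0.26 each, adjusted p = 0.031 and 0.033). The cause was not tested. Quantile normalization moved the median of all genes by at most 0.0605. Same-numbered libraries of different phases did not deviate together (r of -0.15 to 0.22, with 4 of 16 libraries closest to their own number), so the replicate block pairs nothing known. The replicate block, by either numbering, left 2 members called in P3 against P0 and 4 in P15 against P0 and changed no member's call. Values of SLC28A1, SLC28A2 and SLC28A3 rest on at most 46 reads per library, so only large differences are visible at this depth.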
